A study of Mus musculus with 6 samples.

Results

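The T cell receptor complex and the proteins that start its signal are described here through 10 genes: Cd3d, Cd3e, Cd3g, Cd247 and Trac of the receptor itself, the kinases Lck and Zap70, the surface proteins Cd2 and Cd5, and the inhibitor Ubash3a. They were chosen by symbol from the 55536 genes of the count table. All 10 had counts in every library, each symbol had a single Ensembl identifier, and all 10 were among the 17423 genes with enough counts to be tested. RNA was sequenced from tumours of male C3H mice in 6 libraries, 3 untreated (Control 3, 4 and 5) and 3 treated with TSDP (TSDP 1, 2 and 5), the labels' name for a nanoparticle that carries sorafenib and DNIC. Sorafenib is a kinase inhibitor used in liver cancer, and DNIC, a dinitrosyl iron complex, releases nitric oxide. Every mouse, treated or not, carried HCA-1, a single mouse hepatocellular carcinoma line, of which 1000000 cells had been placed under the liver capsule at an age of 6 to 8 weeks. Treated mice were injected intravenously 6 times, first on day 10 and last on day 23, with collection of the tumours on day 24. Whether Control animals got an empty carrier is not stated in the labels.

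The T cell receptor recognises antigen through an alpha and a beta chain, or a gamma and a delta chain, none of which can signal by itself. The signal passes through the CD3 delta, epsilon, gamma and zeta chains, whose tails carry paired tyrosines. Lck, held by the coreceptors CD4 and CD8, phosphorylates these tyrosines, Zap70 docks on them, and the adaptors LAT and SLP-76 then pass the signal on to calcium, RAS and NF-kappaB. CD2 is an adhesion and costimulatory receptor, CD5 dampens the signal and is set high in cells with strongly reactive receptors, and Ubash3a is a phosphatase-family suppressor of receptor signalling. In a tumour these transcripts come mainly from lymphocytes, and in bulk RNA fewer T cells and less RNA per T cell cannot be told apart.

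Libraries held between 32130808 and 38953397 counts, of which the 10 genes together took 740 to 2910. The keratin genes Krt8 and Krt18 lay at 431 CPM (counts per 1000000 counts, TMM-scaled) or more in every library, while the tumour marker Afp lay between 3.27 and 9.20 CPM. Control 3 stood apart from the rest in the sums of its hepatocyte and erythroid markers. Its 10 hepatocyte markers summed to 102.5 CPM, against 20871 and 3696 CPM in Control 4 and 5 and 31238, 58711 and 19359 CPM in TSDP 1, 2 and 5. Its 5 erythroid markers summed to 649 CPM, against at most 52.6 CPM elsewhere. For the 10 genes the log2 fold change without Control 3 is given as well. The same holds for each other gene named from the pathway lists whose log2 fold change moves by over 1.5 times without Control 3.

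All 10 genes had higher fitted levels in TSDP tumours, and none of the differences passed the test. Their log2 fold changes (TSDP over Control) ran from 0.51 to 1.12 with a median of 0.64, while the median of all genes tested was -0.02 and 47.3% of them were positive. The 10 genes share much of their variation over the libraries, so their common sign does not count as 10 separate results. With edgeR's quasi-likelihood test and Benjamini-Hochberg adjustment over all 17423 genes, 0 of the 10 passed an adjusted p of 0.05, and the share called over all genes was 0% in either direction. At an unadjusted p under 0.05 there were 2 of the 10, Cd2 and Ubash3a, beside 8.6% of all genes as higher, and 0 of the 10 as lower, beside 4.75%. DESeq2 and limma-voom also called 0 of the 10, while DESeq2 called 2.98% of all genes as higher and 0.397% as lower. At an unadjusted p under 0.05 each of these tools had 4 of the 10 as higher and 0 as lower. The shares of all genes were 10% higher and 4.44% lower with DESeq2, and 10.6% and 4.61% with limma-voom. In 4 of the 10, Trac, Cd2, Cd5 and Ubash3a, every TSDP library lay above every Control library, which was true of 13% of all genes tested. Leaving out Control 3, a count chosen after seeing the data, could not change these 4, since Control 3 was the lowest library for all 10 genes. Without it 15.7% of all genes were without overlap in this direction.

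**Figure D1:**
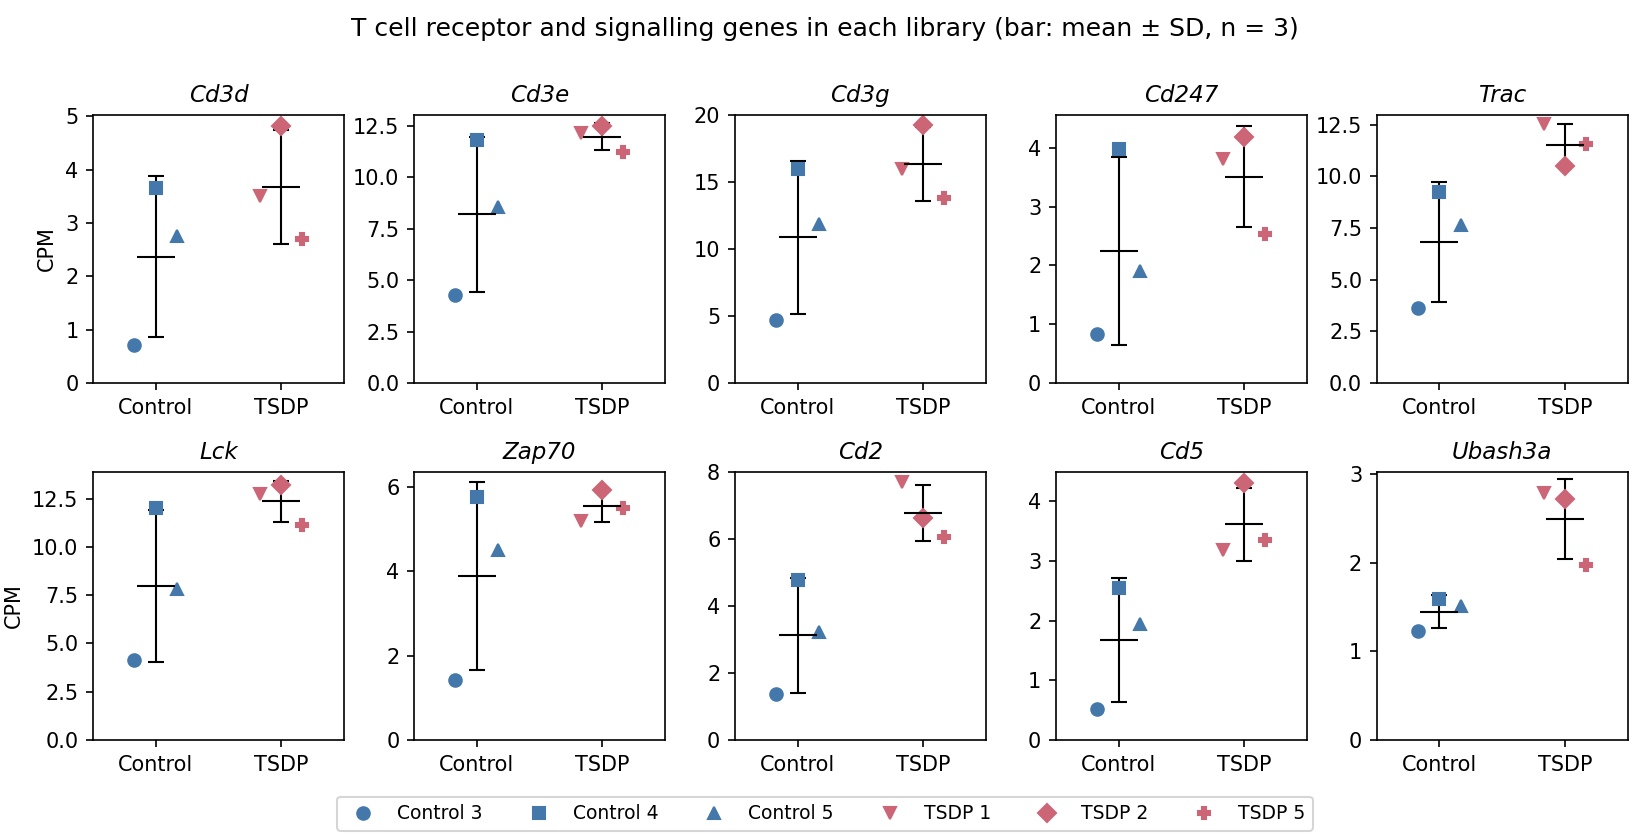
CPM of each of the 10 genes (vertical axes, each from 0) in the 3 Control (blue) and 3 TSDP (red) libraries, with bars for the mean and SD. Control 3 is the lowest point in all 10 panels, and only for Trac, Cd2, Cd5 and Ubash3a do all TSDP points lie above all Control points.

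The 3 invariant CD3 chains of the receptor's ectodomain varied alike from library to library. Cd3e (ENSMUSG00000032093), which encodes the epsilon chain shared by both CD3 heterodimers, measured 4.29, 11.8 and 8.55 CPM across Control 3, 4 and 5 and 12.2, 12.5 and 11.2 across TSDP 1, 2 and 5. TSDP libraries were close together, and Control 4 lay among them. The log2 fold change of Cd3e was 0.54 ± 0.35 (SE, n = 3 each, edgeR adjusted p = 0.522), and without Control 3 it was 0.22 ± 0.20 (edgeR adjusted p = 0.792). Cd3g (ENSMUSG00000002033), the gamma chain, measured 4.73, 16.0 and 11.9 CPM across Control and 16.0, 19.3 and 13.8 across TSDP. Its log2 fold change was 0.59 ± 0.42 (SE, edgeR adjusted p = 0.56), and 0.22 ± 0.22 without Control 3. Cd3d (ENSMUSG00000032094), the delta chain, measured 0.710, 3.65 and 2.76 CPM across Control and 3.51, 4.83 and 2.71 across TSDP. For this chain TSDP 5 and Control 5 were alike, and the log2 fold change, 0.63 ± 0.58 (SE, edgeR adjusted p = 0.643), stood at 0.19 ± 0.34 without Control 3.

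The zeta chain gene Cd247 (ENSMUSG00000005763), whose product carries the largest number of signalling tyrosines in the complex, measured 0.834, 3.99 and 1.91 CPM across Control and 3.81, 4.19 and 2.54 across TSDP. Control 4 exceeded TSDP 1 and TSDP 5, so the groups overlapped, and the log2 fold change came to 0.65 ± 0.56 (SE, edgeR adjusted p = 0.623), or 0.24 ± 0.41 without Control 3 (edgeR adjusted p = 0.896). The value is uncertain, since 3007 of its 5329 exonic bases also lie in exons of Pou2f1 on the other strand. Trac (ENSMUSG00000076928), the constant region of the alpha chain and the segment common to all alpha-beta receptors, measured 3.61, 9.23 and 7.63 CPM across Control and 12.5, 10.5 and 11.6 across TSDP. Here the groups did not overlap. The log2 fold change of Trac was 0.76 ± 0.34 (SE, edgeR adjusted p = 0.401), and 0.44 ± 0.18 without Control 3 (edgeR adjusted p = 0.553).

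Levels within the complex were compared per kilobase of annotated exon, a scale on which they depend on the annotated isoforms. Trac stood highest in both groups, at 7.30 ± 3.09 CPM per kilobase across Control and 12.3 ± 1.07 across TSDP (SD, n = 3 each). Cd3g followed at 3.32 ± 1.74 and 5.0 ± 0.845 CPM per kilobase, then Lck at 2.73 ± 1.35 and 4.22 ± 0.366. Next in Control came Cd3e at 2.01 ± 0.923 and Cd2 at 1.79 ± 0.985, which in TSDP stood the other way round, at 2.93 ± 0.16 for Cd3e and 3.90 ± 0.479 for Cd2. Cd3d and Zap70 were close together, at 1.31 and 1.30 CPM per kilobase in Control and 2.03 and 1.85 in TSDP. Cd247, Cd5 and Ubash3a were the lowest, at 0.421, 0.339 and 0.129 CPM per kilobase in Control and 0.659, 0.733 and 0.222 in TSDP. In Control the SDs of Cd3g, Lck, Cd3e and Cd2 are larger than the steps between them. The ratio of Cd3g to Cd3e per kilobase lay between 1.37 and 1.92 in the 6 libraries, and that of Trac to Cd3e between 3.41 and 4.49. Cd3d was the least steady of the CD3 chains, at 0.372 of Cd3e in Control 3, on 23 counts, and 0.541 to 0.867 elsewhere.

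The kinases followed the CD3 chains. Lck (ENSMUSG00000000409), the Src-family kinase that opens the cascade, measured 4.14, 12.0 and 7.81 CPM across Control and 12.7, 13.2 and 11.2 across TSDP. Control 4 lay above TSDP 5, and the log2 fold change was 0.63 ± 0.37 (SE, edgeR adjusted p = 0.486), or 0.31 ± 0.23 without Control 3. Zap70 (ENSMUSG00000026117), the kinase recruited to the phosphorylated chains, measured 1.42, 5.77 and 4.50 CPM across Control and 5.20, 5.92 and 5.50 across TSDP. It had the smallest log2 fold change of the 10, at 0.51 ± 0.48 (SE, edgeR adjusted p = 0.654), and 0.10 ± 0.22 without Control 3. Control 4 was higher than TSDP 1 and TSDP 5, and the TSDP libraries had an SD of 0.362 CPM.

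Cd2, Cd5 and Ubash3a differed most between Control 4 and 5 and the treated tumours. Cd2 (ENSMUSG00000027863), the adhesion receptor, measured 1.36, 4.78 and 3.23 CPM across Control and 7.70, 6.62 and 6.05 across TSDP. No TSDP library reached down to Control, and the log2 fold change was 1.12 ± 0.44 (SE, edgeR adjusted p = 0.37), or 0.75 ± 0.27 without Control 3 (edgeR adjusted p = 0.543). Cd5 (ENSMUSG00000024669), which also marks a subset of B cells, measured 0.525, 2.55 and 1.94 CPM across Control and 3.18, 4.31 and 3.35 across TSDP. The Control 3 value rests on 17 counts, with an exact Poisson 95% interval of 0.306 to 0.841 CPM that covers counting error only. Its log2 fold change was 1.11 ± 0.54 (SE, edgeR adjusted p = 0.425), or 0.67 ± 0.29 without Control 3. Ubash3a (ENSMUSG00000042345), the suppressor, measured 1.24, 1.59 and 1.52 CPM across Control and 2.79, 2.72 and 1.98 across TSDP. It was the exception in Control, where its 3 libraries lay close together (SD 0.189 CPM, 13.0% of the mean) while the SD of the other 9 genes was 42.4% to 71.4% of theirs. Its log2 fold change was 0.78 ± 0.26 (SE, edgeR adjusted p = 0.334), and 0.67 ± 0.30 without Control 3. The gap between its groups was small beside counting error: Control 4 had 52 counts (1.19 to 2.09 CPM, exact Poisson 95% interval) and TSDP 5 had 71 (1.55 to 2.50 CPM).

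In mean CPM, TSDP stood over the mean of Control 4 and 5 by 1.69-fold for Cd2, 1.61-fold for Cd5, 1.61-fold for Ubash3a and 1.37-fold for Trac. For the CD3 chains, Cd247, Lck and Zap70 the same ratio ran from 1.08 for Zap70 to 1.25 for Lck. Control 4 and 5 in turn stood over Control 3 by 2.33-fold (Trac) to 4.51-fold (Cd3d), with Ubash3a at 1.26-fold. Control 3 was the lowest of the 6 libraries for all 10 genes, and TSDP 2 was the highest for 7 and TSDP 1 for 3. The median log2 fold change of the 10 was 0.27 without Control 3, with all 10 still positive, and 1.04 without Control 4.

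**Figure D2:**
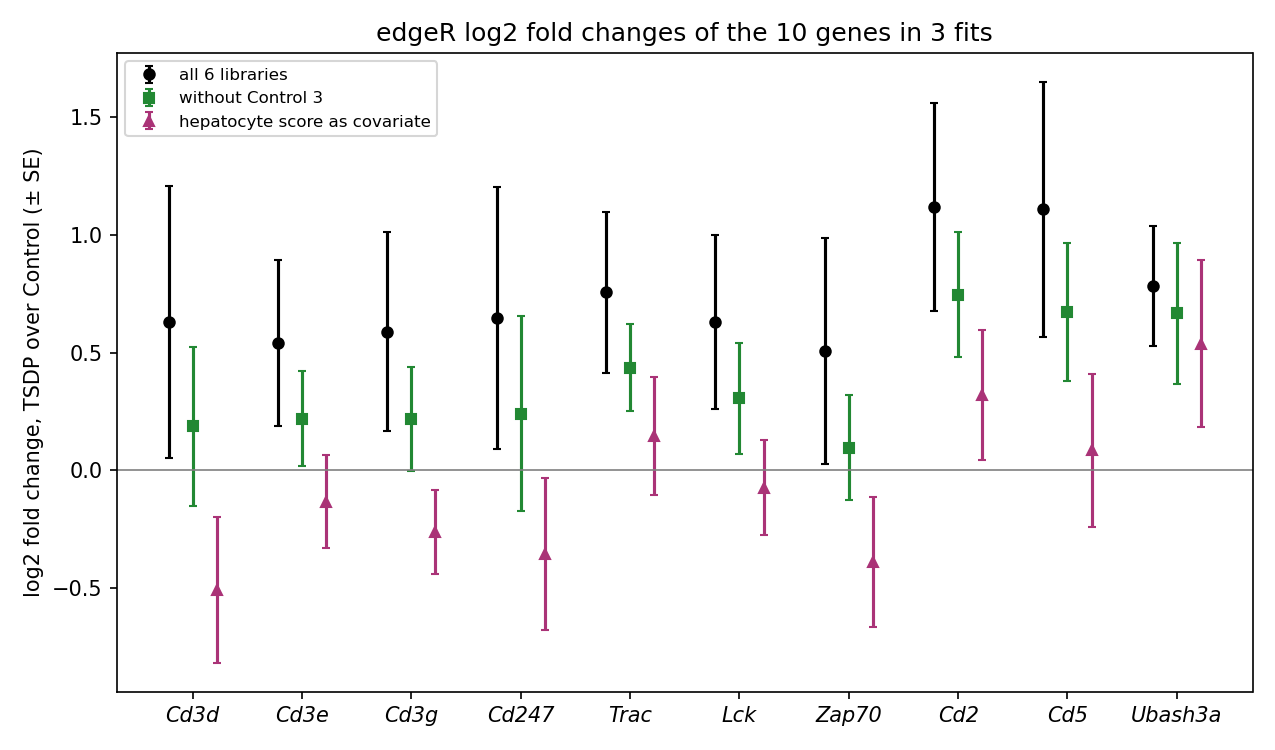
edgeR log2 fold changes (TSDP over Control, vertical axis) with SE for the 10 genes, fitted on all 6 libraries (black), without Control 3 (green) and with the hepatocyte score as a covariate (purple). Values without Control 3 are smaller for every gene and stay above 0, and with the covariate 6 of the 10 lie below 0.

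Markers of other cells in these tumours varied in part along with the 10 genes. All 10 hepatocyte markers had positive log2 fold changes with a median of 2.44, none at 0 in any library. The hepatocyte score, the mean log2 CPM of these markers, was 1.95, 9.52 and 7.25 across Control 3, 4 and 5. Across TSDP 1, 2 and 5 it was 10.4, 11.4 and 9.70, without overlap. With 6 libraries, a fit that holds both group and score cannot cleanly separate them. With this score as a covariate in the edgeR fit, the median log2 fold change of the 10 T cell genes was -0.10. Of these genes 4 were positive and 6 negative, with adjusted p of 0.90 or more. Ubash3a was the largest of the 4, at 0.54 ± 0.35 (SE), and Cd3d the lowest of the 6, at -0.51 ± 0.31. NK cells share Cd247, Lck, Zap70 and Cd2 with T cells. Of 7 NK cell markers 6 were in the table and 4 were tested, all 4 positive with a median of 0.45. Their sum was 2.81, 10.0 and 7.56 CPM across Control and 8.02, 12.2 and 7.20 across TSDP, with Klra8 at 0 counts in 5 libraries. B cells, which can carry Cd2 and Cd5, had 7 markers, of which 6 were tested and all 6 were positive with a median of 1.53. The B cell markers summed to 4.36, 8.31 and 7.83 CPM across Control and 11.3, 19.5 and 11.7 across TSDP, without overlap. The part of NK cells and B cells in the values of the 10 genes was not tested.

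A set of 8 genes common to all leukocytes, Ptprc (CD45) among them, gave a second scale on which library size plays no part. These genes summed to 432, 578 and 421 CPM across Control and 578, 661 and 526 across TSDP, with a median log2 fold change of 0.34 and all 8 positive. Control 3 was thus like Control 5 in the sum of the leukocyte genes, unlike in T cell genes. Single leukocyte genes differed in both directions, with Cd52 at 20.8 CPM in Control 3 and 29.9 in Control 5, and Cd53 at 85.6 and 75.1. Per 1000 reads of the leukocyte genes, the 10 T cell genes together took 53.0, 123.5 and 122.7 reads in Control 3, 4 and 5 and 137.6, 127.3 and 132.9 reads in TSDP 1, 2 and 5. For single genes the difference in mean log2 ratio ran from 0.35 to 1.06 with a median of 0.50, all 10 positive. Cd2 had 3.15, 8.28 and 7.67 reads per 1000 across Control and 13.3, 10.0 and 11.5 across TSDP, Cd5 had 1.22, 4.41 and 4.60 against 5.49, 6.52 and 6.37, and Ubash3a had 2.86, 2.76 and 3.60 against 4.83, 4.11 and 3.77. These 3 genes did not overlap between the groups on this scale. The share of all genes without overlap was not computed on it, so the count of 3 has no background to be read against. A two-sided exact permutation test gave each of them p = 0.1, which no comparison of 3 with 3 libraries can go below (0.333 after Benjamini-Hochberg adjustment over the 10 ratios). Trac overlapped here, since TSDP 2 had 15.9 reads per 1000 and Control 5 had 18.1. Without Control 3 the median difference was 0.08, with 7 positive and 3 negative, and Cd2, Cd5 and Ubash3a stood at 0.53, 0.44 and 0.42.

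**Figure D3:**
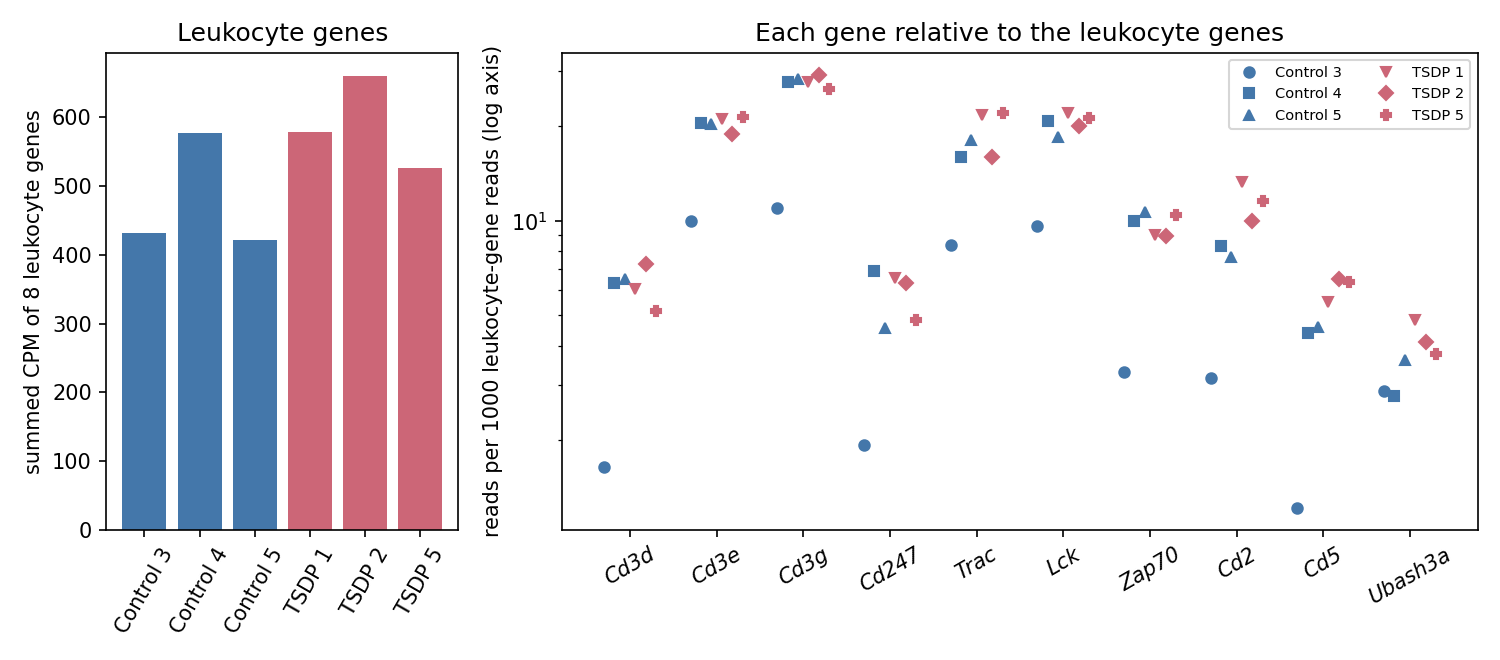
Left, summed CPM of 8 leukocyte genes in each library (bars from 0). Right, reads of each of the 10 genes per 1000 reads of those leukocyte genes (log axis), where Control 3 is far below the others for 9 genes and near Control 4 for Ubash3a.

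The start regions of the genes are shown to set 2 genes whose groups overlapped beside 2 whose groups did not. The RefSeq table (build GRCm38.p6) held 8 of the 10 members, and Trac and Cd2 had no entry. Each sequence is the 250 bases before an annotated start, 5′ to 3′ on the gene's strand. Capitals mark matches, on either strand, to short letter runs that lymphoid transcription factors bind. The core of ETS factors was searched as AGGAAG. The core of RUNX factors was searched as TGTGGT. For the E box the letters searched were CAGCTG. For the family of Gata3 the letters searched were AGATAA. For TCF factors the letters searched were CTTTGA. Matches of different motifs overlapped at 0 places in the windows of the 8 genes. Cd3e is on the minus strand at chr9:45009612-45009861, Lck on the minus strand at chr4:129573642-129573891 (the upstream of its 2 starts), Cd5 on the minus strand at chr19:10738975-10739224 and Ubash3a on the plus strand at chr17:31207816-31208065.
Cd3e: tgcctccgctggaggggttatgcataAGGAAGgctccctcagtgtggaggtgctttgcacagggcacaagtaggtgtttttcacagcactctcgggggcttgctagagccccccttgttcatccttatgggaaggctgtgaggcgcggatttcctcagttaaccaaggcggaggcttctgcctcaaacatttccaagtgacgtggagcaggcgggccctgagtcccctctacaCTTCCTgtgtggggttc
Lck: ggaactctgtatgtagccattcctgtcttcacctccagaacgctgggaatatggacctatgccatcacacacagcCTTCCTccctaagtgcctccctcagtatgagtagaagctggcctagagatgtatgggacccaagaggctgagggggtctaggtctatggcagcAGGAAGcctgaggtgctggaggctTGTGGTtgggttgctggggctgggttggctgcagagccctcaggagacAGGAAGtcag
Cd5: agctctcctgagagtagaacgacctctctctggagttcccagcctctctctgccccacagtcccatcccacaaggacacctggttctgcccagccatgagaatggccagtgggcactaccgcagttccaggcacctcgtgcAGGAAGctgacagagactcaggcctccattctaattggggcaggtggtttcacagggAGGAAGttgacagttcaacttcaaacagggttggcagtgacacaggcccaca
Ubash3a: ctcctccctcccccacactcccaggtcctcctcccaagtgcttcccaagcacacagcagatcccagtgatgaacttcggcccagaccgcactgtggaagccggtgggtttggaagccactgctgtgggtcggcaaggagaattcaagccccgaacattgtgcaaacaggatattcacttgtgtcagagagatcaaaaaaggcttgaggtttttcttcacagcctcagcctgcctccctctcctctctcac
The ETS letters were found in 6 of the 8 genes, in Cd3d, Cd3e, Cd247, Lck, Zap70 and Cd5, over 8 of their 11 start windows, beside 29.5% of all 32851 windows of this length in the table. The RUNX letters were in Lck and Zap70 (14% of all windows), the TCF letters in Cd3d and Zap70 (13.8%), those of the Gata3 family in Cd3g (9.99%) and the E box in none of the 8 (13%). Cd5 has the ETS letters at 109 and 52 bases before its start and Cd3e at 224 and 17 bases. Ubash3a has none of the 5 in this window, which says only that these letters are not there. Genes with and without a gap between Control and TSDP are thus found both with and without the ETS letters.

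The partner chains of the receptor did not all share the profile of Trac. Trbc2, a beta chain constant region, measured 46.1, 33.7 and 29.4 CPM across Control and 53.8, 27.3 and 39.0 across TSDP, and Control 3, the library lowest in Trac, was its second highest. Per kilobase of exon Trbc2 stood 17.2-fold over Trac in Control 3 and 3.50-fold to 5.81-fold over it in the other 5 libraries. Its log2 fold change was 0.14 ± 0.28 (SE, edgeR adjusted p = 0.851), or 0.33 ± 0.29 without Control 3 and -0.14 without TSDP 1. The other beta constant region, Trbc1, was lowest in Control 3 as the members were, at 2.32 CPM, with 4.35 and 4.23 CPM in the other Control libraries and 6.66, 3.96 and 3.54 CPM in TSDP. For Trbc1 the log2 fold change was 0.38, or 0.12 without Control 3 and 0.0462 without TSDP 1. Trbc1 and Trbc2 are near-identical in their coding parts, so reads can be split between them. Cd28, the main costimulatory receptor, was highest in Control 3, at 12.8 CPM, with 6.29 and 5.10 CPM in Control 4 and 5 and 10.2, 5.89 and 6.67 CPM in TSDP. The log2 fold change of Cd28 was -0.0845 ± 0.41 (SE, edgeR adjusted p = 0.937), or 0.40 ± 0.30 without Control 3. Both Trbc2 and Cd28 were high in Control 3 and TSDP 1. Whether T cells or the HCA-1 tumour cells gave these reads cannot be told apart in these libraries, so the ratio of Trbc2 to Trac describes the whole tumour and not its T cells.

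**Figure D4:**
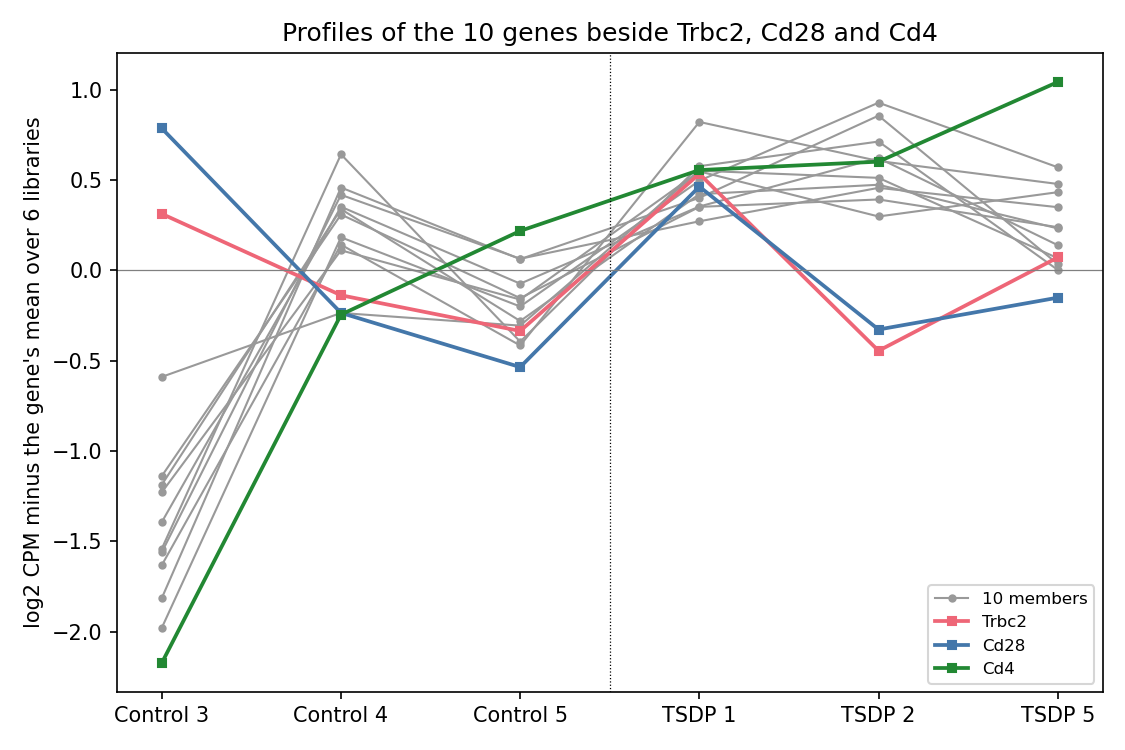
log2 CPM of the 10 genes (grey) and of Trbc2, Cd28 and Cd4, each minus its own mean over the 6 libraries (vertical axis), by library. In Control 3 all 10 grey genes and Cd4 lie below 0 while Trbc2 and Cd28 lie above it.

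Of the coreceptors that hold Lck, Cd4 had the largest fitted fold, and the coreceptors were not tested against each other. Cd4 measured 1.33, 5.21 and 7.21 CPM across Control and 9.12, 9.42 and 12.8 across TSDP. The groups did not overlap. Its log2 fold change was 1.19 ± 0.57 (SE, edgeR adjusted p = 0.417) and 0.73 without Control 3. Cd8a overlapped, at 7.48, 18.6 and 15.9 CPM across Control and 18.2, 19.7 and 18.5 across TSDP, and the log2 fold change was 0.43 ± 0.32 (SE, edgeR adjusted p = 0.58), or 0.11 ± 0.15 without Control 3. For Cd8b1, its partner chain, the log2 fold change was 0.66 ± 0.51 (SE), or 0.23 ± 0.27 without Control 3. Per kilobase of exon the ratio of Cd4 to Cd8a was 0.160, 0.253 and 0.408 across Control 3, 4 and 5 and 0.451, 0.431 and 0.624 across TSDP 1, 2 and 5. Myeloid cells can express Cd4 as well, and the 8 macrophage markers had a median log2 fold change of 0.25 with 7 positive. Their part in Cd4 was not tested. Of this list of 9 constant regions and coreceptors 5 were tested, all positive, with 0 called and a median of 0.43. The gamma chain constant regions stand in the table as Tcrg-C1, Tcrg-C2 and Tcrg-C4, looked up after the values were seen. Tcrg-C2 measured 0.803, 3.34 and 2.46 CPM across Control and 3.81, 3.84 and 3.18 across TSDP, with Control 3 again the lowest. The groups of Tcrg-C2 overlapped, and its TSDP mean stood 1.24-fold over that of Control 4 and 5. Tcrg-C4 was at 0.340, 0.613 and 0.124 CPM (11, 20 and 5 counts) against 1.23, 1.68 and 1.09 CPM, without overlap. Tcrg-C1 overlapped, at 0.216, 0.552 and 0.0497 CPM against 0.630, 0.116 and 0.0837 CPM, and had too few counts to be tested. The delta constant region Trdc had 6 to 13 counts in each library and was not tested.

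Further along the pathway, as in the list of constant regions and coreceptors, 0 of the genes passed the edgeR test: 72 genes were tested over these 7 lists, 56 of them with a positive log2 fold change, which 47.3% of all genes had. At an unadjusted p under 0.05 edgeR had 7 of the 72 as higher, beside 8.6% of all genes, and 1 as lower, beside 4.75%. DESeq2 called 2 of the 72, S1pr1 and Cd69, both as higher, beside 2.98% of all genes, and limma-voom called 0. The counts of genes called or under an unadjusted p of 0.05 are thus near or below the shares of all genes. Lists are described by such counts and by medians, with no test of a list as a whole. The genes named include the 3 of smallest p in each list, so gaps between their groups follow in part from that choice. Genes without overlap (higher, lower) were 1 and 0 of 5 constant regions and coreceptors and 2 and 1 of 15 kinases and adaptors. They were 3 and 1 of 13 downstream genes, 4 and 1 of 13 negative regulators and 2 and 0 of 8 costimulatory genes. For lineage and early genes they were 2 and 0 of 10 and 1 and 0 of 8, beside 13% and 8.76% of all genes. Of 15 tested kinases and adaptors next to the receptor 13 were positive, with a median of 0.39. Lat, the membrane scaffold phosphorylated by Zap70, measured 0.741, 2.85 and 2.39 CPM across Control and 2.63, 3.35 and 2.26 across TSDP, a log2 fold change of 0.46, or 0.0545 without Control 3. Lcp2, which encodes SLP-76, had a log2 fold change of 0.42 ± 0.18 (SE). Fyn, the second Src-family kinase, stood at 0.43 ± 0.20 and Skap1, an adaptor of integrin activation, at 0.85 ± 0.40, or 0.53 without Control 3, from 0.494, 1.41 and 0.920 CPM to 1.75, 1.82 and 1.53 CPM. Among 13 downstream genes 7 were positive and 6 negative, with a median of 0.03. Rasgrp1, the activator of RAS in T cells, measured 10.1, 17.3 and 15.5 CPM across Control and 21.7, 23.1 and 19.8 across TSDP, without overlap, and the log2 fold change was 0.59 ± 0.22 (SE, edgeR adjusted p = 0.356), or 0.38 ± 0.15 without Control 3. Orai1 and Stim1, the channel and sensor of calcium entry, had log2 fold changes of 0.55 ± 0.20 and 0.35 ± 0.16 (SE).

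Negative regulators had a median log2 fold change of 0.24, with 9 of 13 positive. Cblb, a ubiquitin ligase that restrains T cell activation and is made by many cell types, was lower in every TSDP library, at 116, 124 and 135 CPM across Control and 99.4, 81.7 and 100.2 across TSDP (log2 fold change -0.41 ± 0.13, SE, edgeR adjusted p = 0.334). Non-overlap in that direction was found in 8.76% of all genes. Dok2 and Ptpn6 (SHP-1), inhibitors also active in myeloid cells, stood at 0.54 ± 0.16 and 0.48 ± 0.17. Costimulatory genes had a median of 0.42, with 6 of 8 tested positive. Icos, of activated and helper T cells, measured 0.618, 3.47 and 3.75 CPM across Control and 5.04, 6.56 and 4.80 across TSDP, and Tnfrsf4 (OX40) was at 0.741, 2.79 and 2.63 CPM against 3.31, 4.28 and 3.18 CPM, both without overlap. The log2 fold change of Icos was 1.06, or 0.58 without Control 3, and that of Tnfrsf4 0.80, or 0.39. Slamf6 had a log2 fold change of 0.45 ± 0.28 (SE).

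Genes of T cell lineage and homing had a median of 0.58, with 9 of 10 positive. S1pr1, the receptor by which lymphocytes leave tissue, which endothelium also makes, measured 22.7, 21.9 and 18.6 CPM across Control and 38.8, 60.2 and 30.7 across TSDP. Its log2 fold change was 1.04 ± 0.26 (SE, edgeR adjusted p = 0.326, DESeq2 adjusted p = 0.0121). The 6 endothelial markers were all positive beside it, with a median of 0.41, and their part in S1pr1 was not tested. Bcl11b, a factor of T cell commitment, measured 1.27, 2.48 and 1.72 CPM across Control and 3.31, 3.41 and 3.35 across TSDP, without overlap, and the log2 fold change was 0.88 ± 0.29 (SE, edgeR adjusted p = 0.334). Klf2, which maintains S1pr1 expression, had 0.56 ± 0.28. Among the genes induced early by receptor signals 7 of 8 tested were positive, with a median of 0.32. Only 1 of the 8, Cd69, had groups without overlap, and which cells gave its reads was not tested. Cd69, a surface marker of recent activation, measured 1.79, 2.51 and 2.34 CPM across Control and 5.20, 3.64 and 4.58 across TSDP, and the log2 fold change was 1.01 ± 0.25 (SE, edgeR adjusted p = 0.326, DESeq2 adjusted p = 0.0217). Nr4a1 (Nur77), an immediate early gene of receptor signalling that other cells also use, overlapped between groups at 0.33 ± 0.21, or 0.15 without Control 3, and Nr4a2 stood at -0.34 ± 0.17.

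**Figure D5:**
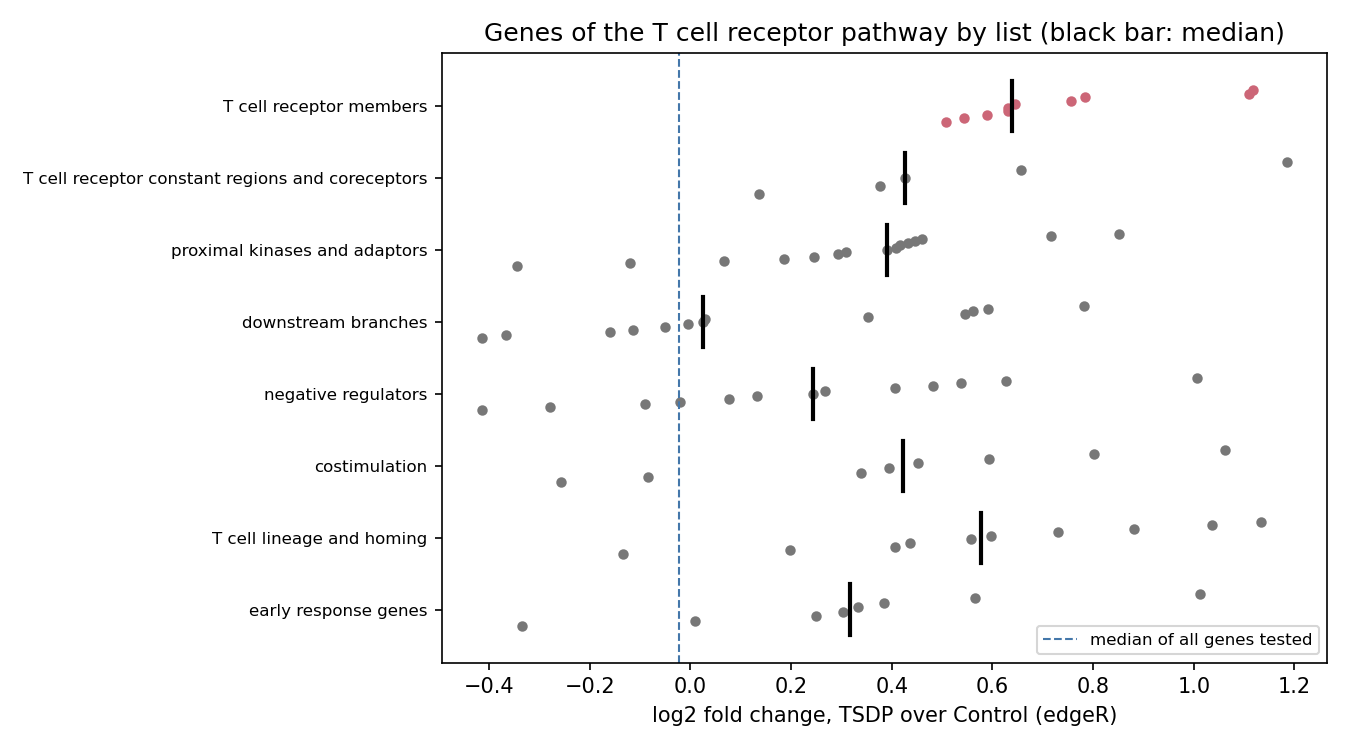
edgeR log2 fold changes (horizontal axis, TSDP over Control) of each tested gene in the 10 members (red) and the 7 other pathway lists (grey), with list medians (black) and the median of all genes tested (dashed, -0.02). The members lie between 0.51 and 1.12, and the downstream genes spread on both sides of 0 with a median of 0.03.

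Among 14263 other tested genes with a symbol that is neither predicted nor pseudogene-like, those closest to the mean profile of the 10 over the 6 libraries were Klrk1, Gimap1, Btla, Cyfip2, Tcrg-C2, Gimap7, Skap1, Slamf8, Cd74 and Bcl11a. Closeness was the root mean square difference of centred log2 CPM, which was 0.07 for Klrk1 and Gimap1 and 0.13 for the tenth gene. Klrk1, which encodes the NKG2D receptor of NK and CD8 T cells, measured 4.20, 13.4 and 8.77 CPM across Control and 14.8, 14.8 and 12.4 across TSDP. Btla, an inhibitory receptor of T and B cells, was at 3.49, 10.7 and 8.48 CPM against 12.5, 13.4 and 12.3 CPM. Cd74, the invariant chain of MHC class II, which antigen-presenting cells make, was at 539, 1845 and 1076 CPM against 1713, 1786 and 1543 CPM. In mean CPM, TSDP stood over Control 4 and 5 by 1.26-fold for Klrk1, 1.32-fold for Btla and 1.15-fold for Cd74. Their fitted folds on all 6 libraries were 1.59, 1.68 and 1.46. Members differed from the mean of the other 9 by 0.10 (Cd3g) to 0.45 (Ubash3a) on this measure. Trbc2 and Cd28, at 0.84 and 1.02, were placed 10531 and 12934 of the 14263.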

How the data were processed

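Per the labels' protocols, an RNeasy kit yielded the RNA and a KAPA HyperPrep mRNA kit the libraries. The submitters' processing notes name featureCounts 2.0.0, HISAT2 2.1.0 and Trimmomatic 0.38, beside CASAVA, FastQC and MultiQC. For the genome build, annotation and strand setting, a statement is not given in the sources used here. The gene identifiers are the 55536 of GENCODE M21, whose exons gave the lengths. The authors deposited raw read counts per gene, and a normalized signal that the authors made by dividing each count by 1 constant per library and that served here for symbols only. Groups came from the titles. The labels name no batch. They do not state that each library is a separate mouse, so a p-value here covers only how these 6 libraries spread, which may be technical. No pair of libraries was alike within counting noise, the lowest chi-square per gene being 46.5.

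Counts were tested with edgeR 4.0.16 (R 4.3.3), with TMM factors, filterByExpr (minimum count 10), the quasi-likelihood F test and Benjamini-Hochberg adjustment over 17423 genes. SE is the absolute log2 fold change over the root of F. Alternatives used DESeq2 1.42.0, limma 3.58.1 (voom), other scaling and filters, a hepatocyte covariate and each library left out. Ratios to leukocyte genes had a prior count of 0.5, and log2 CPM one of 2. The steps were tested on simulated data. The 10 genes, the pathway and marker lists and the tests were chosen with earlier results of these data known. Named genes were the 10, the 3 of smallest p in each pathway list, fixed genes (Trbc1, Trbc2, Cd4, Cd8a, Lat, Cd28, Nr4a1, and 1 not reported here) and the 10 closest in profile. The plasma cell and fibroblast marker lists had medians of 0.08 (3 tested) and 0.31 (7 tested).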

Additional observations from a re-analysis of the deposited data

How the results depend on the processing

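The 10 T cell genes stayed positive, with 0 passing, under each scaling, filter and tool and without each library, at medians from 0.27 (without Control 3) to 1.04 (without Control 4). Over all genes edgeR without the filter called 1 higher, and DESeq2 called 547 higher and 73 lower; the cause was not tested. Adding the hepatocyte score to the fit turned the log2 fold change of Cd3d (-0.51), Cd3e (-0.13), Cd3g (-0.26), Cd247 (-0.36), Lck (-0.0745), Zap70 (-0.39), Cd8a (-0.21), Cd8b1 (-0.37), Trbc1 (-0.10), Lat (-0.50), Icos (-0.12), Tnfrsf4 (-0.14) and Cd28 (0.66); the cause was not tested. The hepatocyte score did not overlap between the groups, so the fit with it cannot cleanly separate group from score. Cd28 also turned with limma-voom (0.0211). With each library left out Trbc2 ran from -0.14 (without TSDP 1) to 0.34, and Cd28 from -0.36 to 0.40 (without Control 3). Relative to the leukocyte genes Cd3d ran from -0.0743 to 0.91, Cd3g from -0.0137 to 0.67 and Zap70 from -0.13 to 0.72, each lowest without Control 3. No paired analysis was possible because the groups share only replicate number 5. Counts of 17 to 667 per gene and library and 3 libraries a group limit what could be detected.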
